A study of Mus musculus with 25 samples.

Results

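The ATP-binding cassette (ABC) exporters of drugs and conjugates, 8 genes, were followed in mouse esophagus in which the transcription factor NRF2 was mutated or its repressor KEAP1 was deleted. The set was taken by symbol from the deposited tables (Abcc1, Abcc2, Abcc3, Abcc4, Abcc5, Abcg2, Abcb1a and Abcb1b), and all 8 were listed and tested in both tables, out of 21954 genes listed in either. RNA was extracted from the esophagus and sequenced in 25 libraries of 7 groups. In pups of 7 to 10 days, 3 libraries each came from NRF2L30F/L30F::K5Cre homozygotes, KEAP1flox/flox::K5Cre mice and mice labelled Wild-Type. In adults of 6 to 9 weeks, 4 libraries each came from NRF2L30F/+::K5CreERT2 heterozygotes, NRF2L30F/L30F::K5CreERT2 homozygotes, KEAP1flox/flox::K5CreERT2 mice and Wild-Type mice. Adults were taken 1 week after tamoxifen at 100 μg per g body weight, a treatment that the design text gives for all adult groups without naming wild type apart. L30F is a substitution found in human cancers, phenylalanine for leucine at codon 30 of NRF2, and Cre under the keratin 5 promoter switches the alleles in squamous cells, from early life with K5Cre and on tamoxifen with K5CreERT2. The labels do not say whether the wild-type mice carried Cre, nor whether libraries of a group are from different animals; p-values therefore measure only the spread between these libraries. Other cells of the esophagus keep their alleles, and bulk RNA holds them too; fewer cells of a type and less RNA per cell cannot be told apart.

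NRF2 activates genes that conjugate, reduce and export reactive compounds, and KEAP1 delivers NRF2 for degradation; the L30F residue lies in a segment that KEAP1 contacts. Conjugates of glutathione, glucuronic acid or sulfate leave a cell through exporters that hydrolyse ATP. The Abcc genes encode multidrug resistance-associated proteins (MRPs), which carry organic anions; Abcb1a and Abcb1b encode the mouse P-glycoproteins, which extrude hydrophobic drugs; Abcg2 encodes the breast cancer resistance protein, which exports urate, sulfated steroids and drugs. Squamous cells of the esophagus line a surface exposed to swallowed compounds.

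The promoters below are shown because NRF2 with a small MAF protein binds an element whose core is TGACNNNGC, where N is any base, and because the exporters named moved by very different amounts. RefSeq promoter windows (GRCm38.p6, 250 bases before to 50 after a start site) were at hand for 6 of the 8 exporters, in 9 windows; Abcc1 and Abcc3 were not among them. The deposited counts were made against GRCm39, so the windows were matched by gene symbol. Capitals mark a match to TGACNNNGC on the printed strand, or to its reverse complement GCNNNGTCA, with no other motif searched.
Abcc4, chr14:118706170-118706469, minus strand: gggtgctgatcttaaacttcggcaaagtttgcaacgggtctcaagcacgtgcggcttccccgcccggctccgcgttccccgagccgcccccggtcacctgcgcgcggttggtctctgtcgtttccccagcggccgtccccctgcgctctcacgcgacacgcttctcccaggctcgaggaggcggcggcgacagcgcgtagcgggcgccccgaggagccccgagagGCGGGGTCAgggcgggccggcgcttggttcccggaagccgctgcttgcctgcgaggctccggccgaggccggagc
Abcc2, chr19:43782058-43782357, plus strand: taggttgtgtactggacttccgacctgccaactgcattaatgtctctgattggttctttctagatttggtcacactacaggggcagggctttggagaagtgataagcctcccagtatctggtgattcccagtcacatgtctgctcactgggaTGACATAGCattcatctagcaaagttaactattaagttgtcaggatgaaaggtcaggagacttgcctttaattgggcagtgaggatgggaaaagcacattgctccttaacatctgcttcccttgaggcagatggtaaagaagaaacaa
Abcb1a, chr5:8566841-8567140, plus strand: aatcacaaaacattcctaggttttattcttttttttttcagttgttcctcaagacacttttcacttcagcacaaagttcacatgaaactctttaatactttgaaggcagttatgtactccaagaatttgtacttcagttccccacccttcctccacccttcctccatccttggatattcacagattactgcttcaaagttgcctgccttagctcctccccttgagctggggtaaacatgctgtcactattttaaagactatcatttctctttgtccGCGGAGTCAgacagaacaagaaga
Abcb1b, chr5:8797897-8798196, plus strand: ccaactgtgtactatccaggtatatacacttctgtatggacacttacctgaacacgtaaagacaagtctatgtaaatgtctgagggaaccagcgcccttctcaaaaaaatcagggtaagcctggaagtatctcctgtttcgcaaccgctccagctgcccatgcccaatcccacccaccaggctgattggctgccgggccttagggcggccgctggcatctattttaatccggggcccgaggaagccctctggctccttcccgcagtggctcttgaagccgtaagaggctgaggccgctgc

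The match in the Abcc4 window lies 25 bases before the start site, that in Abcc2 98 bases before it, and that in Abcb1a 27 bases after it. The Abcb1b window holds none. A second Abcc4 window (chr14:118676882-118677181) holds a match 23 bases before its start site, and the windows of Abcc5 and Abcg2 hold none. In all, 4 of the 9 exporter windows, of 3 genes, held a match, against 4071 of all 32851 promoter windows (12.4%); a match is a run of letters and not a site shown to be bound.

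Values below are normalised read counts recovered from the deposited log2 values, and log2 fold changes are on log2(normalised count + 1), tested with limma and adjusted with Benjamini-Hochberg over all genes of a table; a gene is called under 0.05. Pup and adult tables were normalised separately, so levels are compared only within an experiment. Statements that groups did not overlap describe the libraries and are not a test. Their share over all genes is given only for homozygous against KEAP1-deficient pups. The pup libraries held 18.8 to 19.7 M reads. Adult depth differed by genotype: homozygous libraries held 10.9 to 11.6 M, heterozygous ones 12.8 to 16.9 M, those of KEAP1-deficient mice 22.5 to 31.3 M and those of wild type 27.5 to 32.3 M. All 8 squamous markers checked (Krt5, Krt14, Trp63, Krt4, Krt13, Dsg3, Sox2 and Ivl) were detected in every group. Keap1 was lower in KEAP1-deficient mice, at 725, 825 and 789 against 1094, 1060.2 and 1053 in wild-type pups, or on the log2 scale -0.46 (SE 0.13, adjusted p = 0.012), and by -0.60 (SE 0.07, adjusted p = 8e-06) in adults; the pup call ended when the 3 libraries richest in liver genes were left out (-0.48, adjusted p = 0.085). These counts do not show the L30F substitution. Some pup libraries stood apart in genes of neighbouring organs. Genes typical of hepatocytes summed to 1049 to 9812 in homozygotes, 365 to 11229 in KEAP1-deficient pups and 13426 to 66309.9 in wild type. Thyroid genes summed to 26.6 to 32568 in homozygotes, high in library 1, and to at most 52.5 in the other pup genotypes; glandular stomach genes reached 5704 in KEAP1-deficient library 2 and at most 317.5 in the other pup genotypes.

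In pups, Abcc4 and Abcc3 had the largest rises in both mutants, Abcc1 and then Abcb1b rose less and Abcb1a a little, while Abcc2, Abcc5 and Abcg2 were not called. That is 5 of 8 exporters higher and 0 lower in L30F homozygotes, where 39.2% of all genes tested were called (22.0% higher, 17.1% lower), and 5 higher and 0 lower in KEAP1-deficient pups, where 49.5% were called (26.3% higher, 23.2% lower). The median log2 fold change of the 8 was 1.38 in homozygotes and 1.44 in KEAP1-deficient pups, against -0.03 and -0.05 over all genes tested. With so many genes called, the number of exporters called says less than the size of the change: only 143 of 21007 genes had a larger log2 fold change than Abcc4 in homozygotes, 183 a larger one than Abcc3 and 569 a larger one than Abcc1.

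Abcc4 (ENSMUSG00000032849, chromosome 14) encodes MRP4, an exporter of cyclic nucleotides, urate and prostaglandins. It had 9910.3, 9115 and 11232 normalised counts in L30F homozygous pups and 11568, 10508 and 9974 in KEAP1-deficient pups, against 273, 225 and 269 in wild type. Every mutant library lay far above every wild-type library. The log2 fold change was 5.30 (SE 0.10, adjusted p = 2.6e-10) in homozygotes, 39.3-fold, and 5.38 (SE 0.10, adjusted p = 1.9e-10) in KEAP1-deficient pups, 41.7-fold.

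Abcc3 (ENSMUSG00000020865, chromosome 11) encodes MRP3, which moves glucuronide conjugates across the basolateral membrane. Its counts were 8686, 7911 and 6885 in homozygotes and 10064, 9789 and 9150.1 in KEAP1-deficient pups, against 326, 237 and 218 in wild type. No mutant library came near the wild-type range. All 3 KEAP1-deficient libraries were above all 3 homozygote libraries, but 27.1% of all genes showed no overlap between these 2 groups. The difference between them, homozygotes minus KEAP1-deficient pups, was -0.31 and not called (limma, adjusted p = 0.23). Abcc3 rose by 4.92 (SE 0.14, adjusted p = 5.3e-09) in homozygotes and by 5.23 (SE 0.14, adjusted p = 2.6e-09) in KEAP1-deficient pups, 30.3-fold and 37.6-fold.

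Abcc1 (ENSMUSG00000023088, chromosome 16) encodes MRP1, which exports glutathione conjugates and leukotriene C4. It had 8866, 9290.1 and 9699.6 in homozygotes and 11238, 11425 and 10530.3 in KEAP1-deficient pups, against 1334, 1357 and 1198 in wild type. Every mutant library again stood clear of wild type. Abcc1 rose by 2.84 (SE 0.07, adjusted p = 1.3e-09) in homozygotes, 7.16-fold, and by 3.09 (SE 0.07, adjusted p = 6.3e-10) in KEAP1-deficient pups, 8.54-fold. Squamous markers were higher in the mutants too, 5 of 8 called higher and 1 lower in homozygotes and 7 and 1 in KEAP1-deficient pups, summing to 215691 to 254469 in homozygotes and 287108 to 322339 in KEAP1-deficient pups, against 130134 to 151208 in wild type, and 6 of 7 fibroblast markers were lower in each mutant (161437 to 227946 and 98548 to 194822 against 461793 to 498913). The part of either in these changes was not tested.

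**Figure D1:**
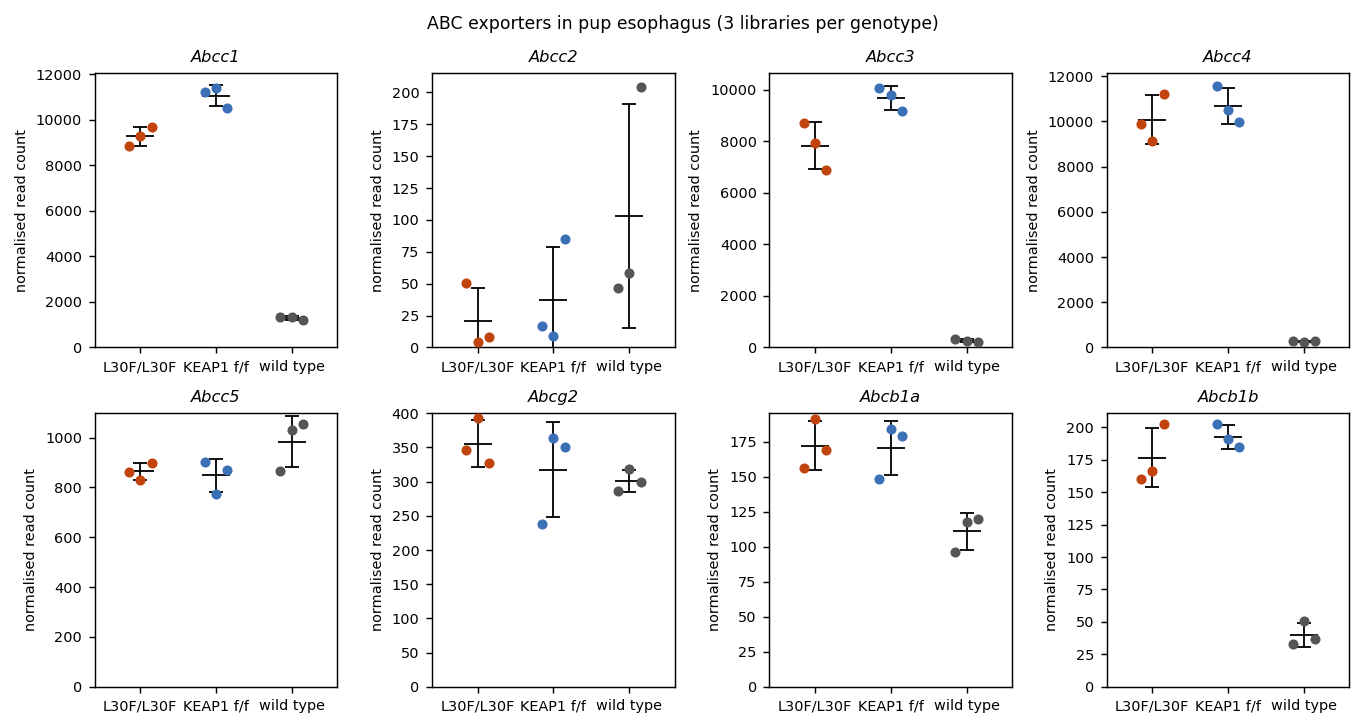
Normalised read counts (vertical axes, from 0, a separate scale per gene) of the 8 exporters in L30F homozygous, KEAP1-deficient and wild-type pups; points are libraries, and bars are the mean ± SD of 3. Abcc1, Abcc3, Abcc4 and Abcb1b of both mutants lie clear of wild type, Abcc5 and Abcg2 lie near it, and Abcc2 is scattered in every genotype.

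In adults, 1 week after induction, the same MRP genes rose again, by less, and Abcc2 rose with them. Heterozygotes had 7 of 8 exporters higher and 0 lower, where 9.70% of all genes tested were called (4.80% higher, 4.90% lower); the count over all genes was 1927, and 624, 1153 and 968 without wild-type library 1, 2 or 3, with 6 exporters higher in the first of these fits. Homozygotes had 6 higher and 0 lower, where 22.3% were called (11.8% higher, 10.4% lower). KEAP1-deficient adults had 5 higher and 1 lower, where 46.8% were called (24.1% higher, 22.7% lower). The median log2 fold change of the 8 was 0.66 in heterozygotes, 0.95 in homozygotes and 0.79 in KEAP1-deficient adults, against 0.01, -0.01 and -0.01 over all genes tested.

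Abcc4 had 3073, 2890.1, 3134 and 3049.8 in L30F heterozygotes, 5772, 4812, 4248 and 6395 in homozygotes and 6102, 5739.8, 4760.1 and 4900.2 in KEAP1-deficient adults, against 738, 703, 806 and 817 in wild type. The lowest heterozygote library was above the highest wild-type library, and heterozygotes did not overlap with homozygotes. Abcc4 rose by 1.99 (SE 0.11, adjusted p = 2.2e-08) in heterozygotes, by 2.78 (SE 0.11, adjusted p = 2.6e-10) in homozygotes and by 2.80 (SE 0.11, adjusted p = 9.6e-11) in KEAP1-deficient adults, which is 3.97-fold, 6.85-fold and 6.98-fold. In homozygotes 125 of 19857 genes had a larger log2 fold change, and in KEAP1-deficient adults 436.

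Abcc3 had 2124, 2440.3, 2443 and 2940.3 in heterozygotes, 4797, 3854, 3477 and 4845 in homozygotes and 4741, 4437, 3968 and 3826 in KEAP1-deficient adults, against 1684, 1291, 1605 and 1250.2 in wild type. Homozygotes and KEAP1-deficient adults were highest, heterozygotes lay between and wild type was lowest, without overlap between those steps. Its log2 fold change was 0.77 (SE 0.13, adjusted p = 0.0024) in heterozygotes, 1.54 (SE 0.13, adjusted p = 8.9e-07) in homozygotes and 1.55 (SE 0.13, adjusted p = 1.5e-07) in KEAP1-deficient adults.

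Abcc1 had 3979, 3658, 3861 and 3899 in heterozygotes, 6454, 5374, 4668 and 5996 in homozygotes and 6090.1, 5615, 5150.4 and 5225 in KEAP1-deficient adults, against 2509, 2392, 2316 and 2549 in wild type. The groups fell into the same steps. Its log2 fold change was 0.66 (SE 0.09, adjusted p = 0.00027) in heterozygotes, 1.19 (SE 0.09, adjusted p = 1.5e-07) in homozygotes and 1.17 (SE 0.09, adjusted p = 3.5e-08) in KEAP1-deficient adults. Within the homozygotes these 3 genes ranked the libraries almost alike: libraries 1 and 4 were the higher pair and library 3 the lowest in Abcc1, Abcc3 and Abcc4, with the highest 1.38, 1.39 and 1.51 times the lowest.

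Cell type markers also moved with genotype in adults. Squamous markers summed to 589310.0 to 862262 in heterozygotes, 535877 to 677623 in homozygotes and 280033 to 348862 in KEAP1-deficient adults, against 929013 to 1248240.0 in wild type. In wild type that sum is mostly Krt4 and Krt13, keratins of the upper layers, and its members parted: 2 of the 8 markers were called higher and 4 lower in homozygotes, 3 and 3 in KEAP1-deficient adults, and 0 and 1 in heterozygotes. Krt14, a keratin of the basal layer, had 22909 to 51400.2 in homozygotes and 106556 to 121656 in KEAP1-deficient adults, against 8772 to 9625 in wild type, while Krt4 had 131669 to 239352 and 2821 to 17644, against 436308 to 647711 in wild type. Fibroblast markers summed to 135102 to 273461 in heterozygotes, 191306 to 265746 in homozygotes and 297808 to 389795 in KEAP1-deficient adults, against 127269 to 156736 in wild type, and 5 of 7 were called higher in the KEAP1-deficient group. All 6 smooth muscle markers were called lower there, with sums of 21023 to 38922, against 40167 to 54417 in wild type. Leukocyte markers summed to 3747 to 4946, 5164 to 17899 and 33298 to 40434 in heterozygotes, homozygotes and KEAP1-deficient adults, against 2812 to 5219.5 in wild type, with all 8 measured. A sum follows its most abundant members. Their median log2 fold change was 0.19 in heterozygotes (0 called higher), 0.84 in homozygotes (6 higher) and 1.55 in KEAP1-deficient adults (7 higher), with 0 lower in each. The part of these shifts in the exporter values was not tested.

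**Figure D2:**
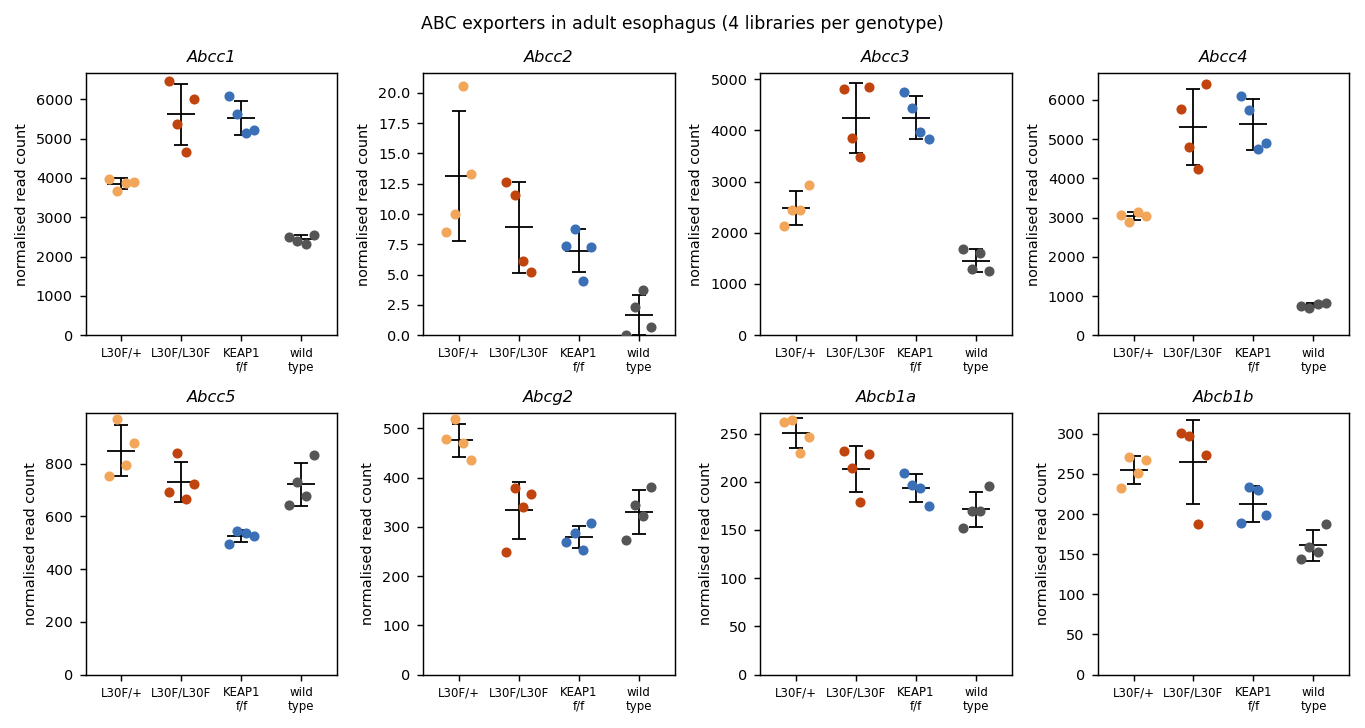
Normalised read counts (vertical axes, from 0, a separate scale per gene) of the 8 exporters in L30F heterozygous, L30F homozygous, KEAP1-deficient and wild-type adults; points are libraries, and bars are the mean ± SD of 4. Abcc1, Abcc3 and Abcc4 are higher in homozygotes and KEAP1-deficient adults than in heterozygotes and lowest in wild type, Abcg2 and Abcb1a are highest in heterozygotes, and Abcc5 is lowest in KEAP1-deficient adults.

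The heterozygotes allow the effect of 1 allele to be set against that of 2. Going from 1 to 2 L30F alleles, homozygotes minus heterozygotes, raised Abcc1 by 0.54 (SE 0.09, adjusted p = 0.00095), Abcc3 by 0.77 (SE 0.13, adjusted p = 0.0014) and Abcc4 by 0.79 (SE 0.11, adjusted p = 0.00038), and lowered Abcg2 by 0.53 (SE 0.13, adjusted p = 0.012). These are 3 exporters higher and 1 lower, where 16.4% of all genes were called (8.07% higher, 8.29% lower). A log2 midpoint between wild type and homozygotes served as the line of equal steps. Abcc1 heterozygotes had reached 55.0% of the homozygote log2 change and lay 0.06 from the midpoint (95% interval -0.10 to 0.22); Abcc3 heterozygotes had reached 50.2% and lay 0.00 from it (-0.24 to 0.24). Neither departure was called. Abcc4 heterozygotes had reached 71.6% of the homozygote log2 change, 0.60 (SE 0.10, adjusted p = 0.0019) above the log2 midpoint. That departure depends on the scale. Mean Abcc4 counts were 766 in wild type, 3037 in heterozygotes and 5307 in homozygotes, so the steps were close to equal in counts. In counts the second step was the larger for Abcc1 (2442, 3849 and 5623) and Abcc3 (1457, 2487 and 4243). Abcb1b heterozygotes had reached 95.5%, 0.32 (SE 0.12, adjusted p = 0.11) from the midpoint, which was not called. Abcb1a, Abcg2 and Abcc2 lay above the midpoint as well, by 0.39 (SE 0.09, adjusted p = 0.015), 0.53 (SE 0.11, adjusted p = 0.009) and 1.55 (SE 0.41, adjusted p = 0.027), with heterozygote means above those of both other genotypes. Abcc5 heterozygotes lay 0.23 above it (SE 0.08, adjusted p = 0.11), which was not called. In all 4 of 8 exporters were called above the midpoint and 0 below, where 8.97% of all genes were called (5.03% above, 3.95% below). The Abcc2 departure rests on few reads: it was not called without heterozygote library 3 (1.32, adjusted p = 0.10) or 4 (1.51, adjusted p = 0.059), with a pseudocount of 0.1 (adjusted p = 0.080) or after thinning to equal depth (adjusted p = 0.16).

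**Figure D3:**
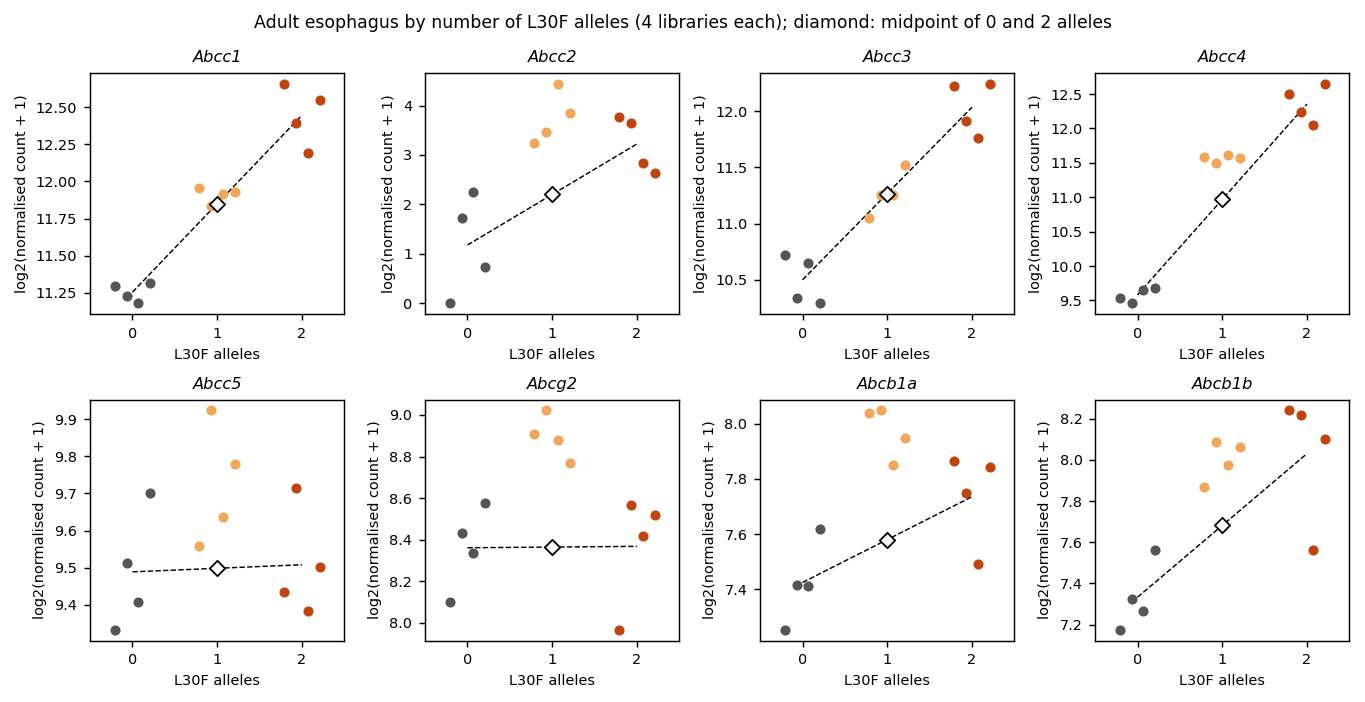
Level of each exporter on the log2(normalised count + 1) scale (vertical axes, separate scales that do not start at 0) in adult libraries with 0, 1 and 2 L30F alleles; the dashed line joins the means of 0 and 2 alleles and the diamond marks their midpoint. The 4 heterozygote libraries lie on both sides of the diamond in Abcc1 and Abcc3 and above the diamond in Abcc4, Abcg2 and Abcb1a.

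The direct comparison of L30F homozygotes with KEAP1-deficient mice asked whether the 2 lesions move the exporters differently. In pups none of the 8 was called, where 4.17% of all genes were called, or 875 genes; without any single one of 7 of the 9 libraries that number was 46 to 379, lowest without KEAP1-deficient library 2. By limma-voom 0 of the 8 were called as well, and 1 had an unadjusted p under 0.05 in limma. That gene was Abcc1, with a difference of -0.25 and no overlap between libraries, as in 27.1% of all genes (95% interval -0.41 to -0.09, adjusted p = 0.072). The intervals were -0.63 to 0.01 for Abcc3, -0.31 to 0.14 for Abcc4 and -0.53 to 0.26 for Abcb1b, small beside the changes from wild type. In adults 1 of 8 was called, Abcc5, higher in homozygotes, where 26.4% of all genes were (12.9% higher, 13.5% lower). The adult differences of Abcc1, Abcc3 and Abcc4 were 0.02, -0.01 and -0.03, with 95% intervals of -0.16 to 0.20, -0.29 to 0.27 and -0.27 to 0.21. With 4 libraries a group, these intervals include 0 and do not exclude differences within those bounds. Without homozygote library 1, Abcg2 was also called, at 0.37 (adjusted p = 0.022), and without homozygote library 3, Abcb1b, at 0.45 (adjusted p = 0.0074). Heterozygotes differed from KEAP1-deficient adults in 6 of 8, 3 higher and 3 lower, where 44.8% of all genes were called (21.6% higher, 23.2% lower). Abcc1, Abcc3 and Abcc4 were lower in heterozygotes (-0.52, -0.78 and -0.82), and Abcc5, Abcg2 and Abcb1a were higher (0.69, 0.77 and 0.37), with adjusted p from 2.2e-05 to 0.0088.

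The response of the MRP genes was smaller in adults than in pups, tested as the adult log2 fold change against wild type minus that in pups. For L30F homozygotes it differed by -1.65 (SE 0.11, adjusted p = 8e-12) for Abcc1, -3.38 (SE 0.19, adjusted p = 2.4e-12) for Abcc3 and -2.52 (SE 0.15, adjusted p = 1.2e-12) for Abcc4. For KEAP1 deletion it differed by -1.92 (SE 0.11, adjusted p = 1.8e-13), -3.68 (SE 0.19, adjusted p = 2.4e-13) and -2.58 (SE 0.15, adjusted p = 3.3e-13). Abcb1b followed the same course, with -1.43 (SE 0.23, adjusted p = 3.2e-05) for L30F and -1.86 (SE 0.23, adjusted p = 5.3e-07) for KEAP1. Abcc2 ran the other way, with estimates below 0 in pups and above 0 in adults. Its log2 fold change was -2.65 in homozygous pups and -1.74 in KEAP1-deficient pups, neither called, and 2.04 and 1.79 in adults. In each lesion the difference was called below 0 for 4 of 8 exporters and above 0 for 1, Abcc2. Over all genes 33.5% differed for L30F (13.6% upward, 19.9% downward) and 47.1% for KEAP1 (20.6% upward, 26.5% downward). Age, the Cre driver, the time since recombination and the separate normalisation all differ between these experiments and cannot be told apart. Cell type markers differed between the ages too. The median difference of squamous markers was -0.80 for L30F and -1.64 for KEAP1, and that of fibroblast markers 1.87 and 2.89. The part of these shifts in the exporter differences was not tested.

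**Figure D4:**
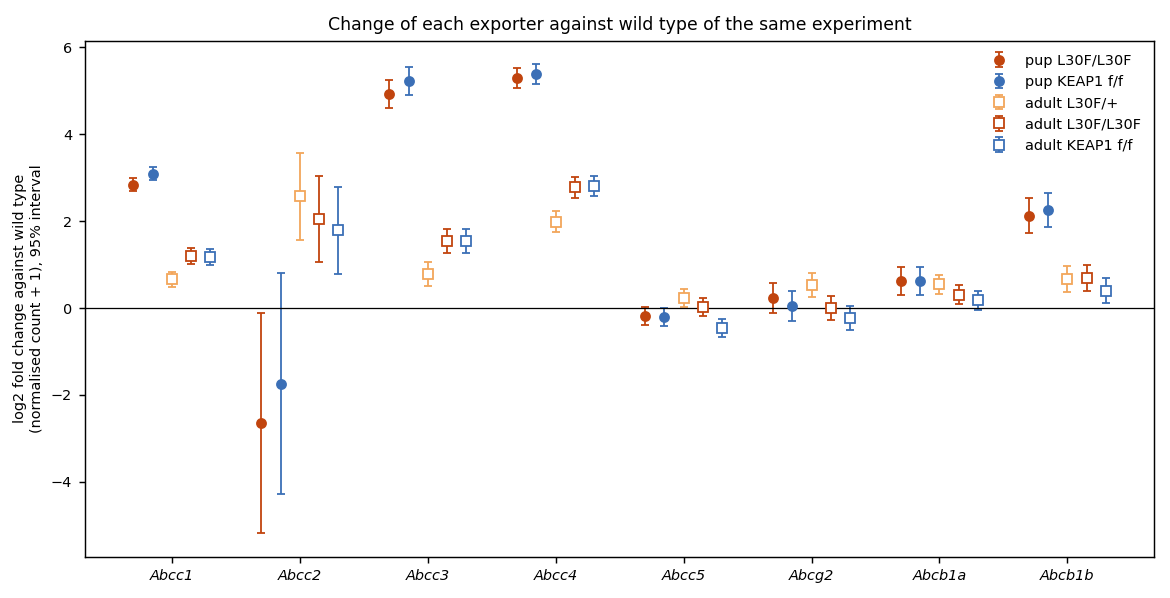
Log2 fold change of each exporter against wild type of the same experiment (vertical axis), with 95% intervals; filled circles are pups and open squares adults, and each gene runs from pup L30F homozygotes to adult KEAP1-deficient mice. Abcc1, Abcc3, Abcc4 and Abcb1b lie higher in pups than in adults, and Abcc2 lies below 0 in pups with wide intervals and above 0 in adults.

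Abcc2 (ENSMUSG00000025194, chromosome 19) encodes MRP2, an apical exporter best known for carrying bilirubin glucuronides from hepatocytes into bile. In pups it had 50.8, 3.94 and 8.19 in homozygotes and 17.1, 9.03 and 85.3 in KEAP1-deficient mice, against 46.3, 58.7 and 204 in wild type. The groups overlapped, and 1 library in each genotype stood well above the others. Its log2 fold change was -2.65 (SE 1.10, adjusted p = 0.092) in homozygotes and -1.74 (SE 1.10, adjusted p = 0.22) in KEAP1-deficient pups, neither called. The high libraries, homozygote 1, KEAP1-deficient 3 and wild-type 3, were also the ones with the highest hepatocyte sum in their genotype, at 9812, 11229 and 66310. Without those 3 libraries, an alternative chosen after seeing the data, Abcc2 was called lower in homozygotes (-2.98, adjusted p = 0.0050) and in KEAP1-deficient pups (-1.98, adjusted p = 0.018); it was also called without homozygote library 1 alone (-3.63, adjusted p = 0.025). The other 2 wild-type libraries still held 14826 and 13427 counts of hepatocyte genes, above every remaining mutant library, at 364.5 to 1584. The part of these genes in the pup values was not tested.

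In adults Abcc2 was barely detected in wild type and higher in every mutant group. Reads were 7, 7, 17 and 9 in heterozygotes, 8, 7, 4 and 3 in homozygotes and 13, 11, 6 and 10 in KEAP1-deficient adults, against 0, 4, 6 and 1 in wild type; 0 reads in wild-type library 1 allow up to 3 reads, or 2.03 normalised counts. Normalised, these were 8.53, 10.0, 20.6 and 13.3 in heterozygotes, 12.6, 11.6, 6.11 and 5.23 in homozygotes and 7.32, 8.79, 4.51 and 7.28 in KEAP1-deficient adults, against 0, 2.32, 3.73 and 0.672 in wild type. No mutant library fell into the wild-type range. The log2 fold change was 2.57 (SE 0.47, adjusted p = 0.004) in heterozygotes, 2.04 (SE 0.47, adjusted p = 0.0059) in homozygotes and 1.79 (SE 0.47, adjusted p = 0.0052) in KEAP1-deficient adults; the last was not called after thinning to equal depth (1.53, adjusted p = 0.058). Hepatocyte genes in adults, 10 of 12 of them measured, summed to 1332 to 2191 in heterozygotes, 436 to 2636 in homozygotes and 1109.9 to 1681 in KEAP1-deficient mice, against 557 to 1506 in wild type. Most of that sum is Trf, the transferrin gene, in all adult libraries but heterozygote 1 and homozygote 4. Without Trf the sums were 345 to 1346, 4.97 to 1749 and 17.6 to 139.7 in those groups, against 22.2 to 347 in wild type. In heterozygotes, the group with the highest mean of Abcc2, the hepatocyte genes had a median log2 fold change of 2.62 against wild type, 2 of 10 called higher (Ahsg and Apoa1), and 6 of 10 were higher than in KEAP1-deficient adults; in homozygotes 0 of 10 were called against wild type, at a median of 0.13, and in KEAP1-deficient adults 1, at a median of -0.98. Within the heterozygotes the sums without Trf were 1346, 681, 345 and 507 in libraries 1 to 4, the reverse of their order in Abcc2. Homozygote libraries 1 and 2 had the most Abcc2 of their group and the lowest hepatocyte sums of all adults, with or without Trf. The part of these genes in the adult values was not tested. The effect differed between ages by 4.69 (SE 1.19, adjusted p = 0.01) for L30F and 3.52 (SE 1.19, adjusted p = 0.031) for KEAP1; the KEAP1 difference was not called without pup wild-type library 2 or 3, pup KEAP1-deficient library 1 or 2 or adult wild-type library 1 (adjusted p from 0.052 to 0.11), nor with a pseudocount of 4 (adjusted p = 0.062).

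**Figure D5:**
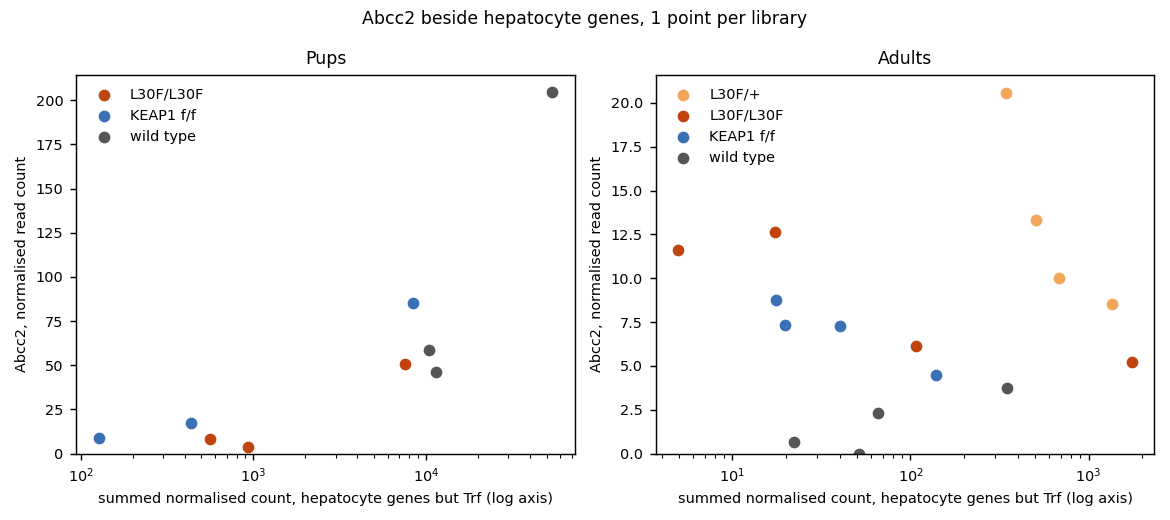
Normalised read count of Abcc2 (vertical axes, from 0) against the summed normalised count of hepatocyte genes other than Trf (horizontal axes, log scale), 1 point per library, in pups (left) and adults (right). In pups the 5 libraries with most Abcc2 are the 5 with most hepatocyte counts, up to 204.5 and 53929 in wild-type library 3. In adults the heterozygotes are high in both measures as a group, but among their libraries more Abcc2 goes with fewer hepatocyte counts. Wild type lies lowest in Abcc2, and homozygote libraries 1 and 2 lie lowest in hepatocyte counts.

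Abcc5 (ENSMUSG00000022822, chromosome 16) encodes MRP5, an exporter of cyclic nucleotides and nucleotide analogues. In pups it had 864, 831 and 898 in homozygotes and 902, 775 and 869 in KEAP1-deficient mice, against 868, 1031 and 1053 in wild type. Groups overlapped through wild-type library 1, and the log2 fold changes were -0.18 (SE 0.09, adjusted p = 0.15) and -0.21 (SE 0.09, adjusted p = 0.087), not called. Without that library they were called, at -0.27 (adjusted p = 0.040) in homozygotes and -0.30 (adjusted p = 0.021) in KEAP1-deficient pups. In adults Abcc5 had 753, 970.1, 796 and 877 in heterozygotes, 691, 839, 666 and 724 in homozygotes and 496, 546, 536 and 524 in KEAP1-deficient mice, against 644, 729, 679 and 831 in wild type. All 4 KEAP1-deficient libraries were below every other adult library. Abcc5 of KEAP1-deficient adults fell by 0.45 (SE 0.10, adjusted p = 0.0012) and was 0.47 (SE 0.10, adjusted p = 0.0022) higher in homozygotes than in them. The change from wild type was 0.24 (SE 0.10, adjusted p = 0.14) in heterozygotes and 0.02 (SE 0.10, adjusted p = 0.91) in homozygotes, not called. Striated muscle markers were also lowest in KEAP1-deficient adults, summing to 79008 to 114258, with 274161 to 396573 in heterozygotes and 189934 to 262588 in homozygotes, against 206224 to 238804 in wild type; their part in the Abcc5 values was not tested.

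The P-glycoprotein genes Abcb1a (ENSMUSG00000040584) and Abcb1b (ENSMUSG00000028970) lie on chromosome 5 and share sequence. Of the 31-base words of their GENCODE transcripts, 21.4% of those of Abcb1a and 24.9% of those of Abcb1b occur in the other gene, so reads could be split between them and each value is uncertain to that extent. The other 6 exporters shared at most 0.239% of such words with any other gene.

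Abcb1b had 160.4, 167 and 203 in homozygous pups and 203, 191 and 185 in KEAP1-deficient pups, against 32.9, 50.7 and 36.8 in wild type. Wild type was the lower group throughout, and the log2 fold change was 2.13 (SE 0.18, adjusted p = 7.5e-06) in homozygotes and 2.26 (SE 0.18, adjusted p = 3.4e-06) in KEAP1-deficient pups, 4.36-fold and 4.78-fold. In adults it had 233, 271, 251 and 267 in heterozygotes, 301, 297, 188 and 274 in homozygotes and 189, 233, 229.8 and 199 in KEAP1-deficient mice, against 144, 159, 153 and 188 in wild type. Homozygote library 3 lay at the top of the wild-type range. Abcb1b rose by 0.67 (SE 0.14, adjusted p = 0.0089) in heterozygotes, by 0.70 (SE 0.14, adjusted p = 0.0025) in homozygotes and by 0.40 (SE 0.14, adjusted p = 0.027) in KEAP1-deficient adults. The KEAP1 call ended without wild-type library 1, 2 or 3 or KEAP1-deficient library 2 or 3 (adjusted p from 0.053 to 0.079) and after thinning to equal depth (adjusted p = 0.072).

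Abcb1a had 156, 191 and 169 in homozygous pups and 148, 184 and 179 in KEAP1-deficient pups, against 96.1, 117 and 119.8 in wild type. Neither mutant group overlapped with wild type, and the rise was small, 0.63 (SE 0.15, adjusted p = 0.0065) in homozygotes and 0.61 (SE 0.15, adjusted p = 0.0056) in KEAP1-deficient pups. In adults it had 262, 264, 230.1 and 246 in heterozygotes, 232, 214, 179 and 228 in homozygotes and 209.6, 196, 194 and 175 in KEAP1-deficient mice, against 152, 169.8, 169 and 196 in wild type. Heterozygotes were highest and clear of wild type, and the other groups overlapped with it. Abcb1a rose by 0.55 (SE 0.11, adjusted p = 0.0056) in heterozygotes and by 0.31 (SE 0.11, adjusted p = 0.045) in homozygotes, and its change in KEAP1-deficient adults was 0.18 (SE 0.11, adjusted p = 0.19). The homozygote call ended in 10 of 16 fits that left out 1 library (without wild-type 1, 2 or 3, heterozygote 4, homozygote 1, 2 or 4, or KEAP1-deficient 1, 2 or 3), with adjusted p from 0.050 to 0.14. Endothelial cells, which carry P-glycoprotein, contributed markers that summed to 4346 to 8082 in adult heterozygotes, 6518 to 8563 in homozygotes and 7928 to 8729 in KEAP1-deficient mice, against 4524 to 6112 in wild type; their part was not tested.

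Abcg2 (ENSMUSG00000029802, chromosome 6) showed no call in pups, with 347, 393 and 327 in homozygotes and 238, 363 and 351 in KEAP1-deficient mice, against 287, 318 and 299 in wild type. Its log2 fold change was 0.23 (SE 0.16, adjusted p = 0.27) in homozygotes, with a 95% interval of -0.12 to 0.58, and 0.05 (SE 0.16, adjusted p = 0.81) in KEAP1-deficient pups, with one of -0.30 to 0.40. In adults the heterozygotes stood apart from every other group. Counts were 479, 519, 469.9 and 436 in heterozygotes, 249, 378, 341 and 366 in homozygotes and 269.9, 287, 254 and 308 in KEAP1-deficient mice, against 273, 344, 322 and 381 in wild type. Abcg2 rose by 0.53 (SE 0.13, adjusted p = 0.018) in heterozygotes, while the change was 0.01 (SE 0.13, adjusted p = 0.98) in homozygotes and -0.23 (SE 0.13, adjusted p = 0.15) in KEAP1-deficient adults, neither called. The heterozygote call ended without wild-type library 1, the lowest of its group (0.45, adjusted p = 0.075). Striated muscle markers, given above, were highest in the heterozygotes as well, and their part in the Abcg2 values was not tested.

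Set against each other per kilobase of transcript (the longest protein-coding GENCODE transcript; normalised counts per kilobase, mean ± SD), the order of the levels differed between genotypes, except that homozygous and KEAP1-deficient adults had the same order of means. In L30F homozygous pups Abcc4 (1765 ± 187), Abcc3 (1564 ± 181) and Abcc1 (1367 ± 61.3) led, with neighbours overlapping, far above Abcc5 (149 ± 5.78). In KEAP1-deficient pups Abcc3 (1932 ± 93.7) and Abcc4 (1869 ± 142) overlapped and Abcc1 (1629 ± 69.5) was below them. Below those, Abcc5, Abcg2, Abcb1b, Abcb1a and Abcc2 followed in that order in both mutants. In wild-type pups Abcc1 (191 ± 12.7) and Abcc5 (169 ± 17.4) led, and their libraries overlapped. Abcg2 (52.7 ± 2.79), Abcc3 (52.0 ± 11.5) and Abcc4 (44.7 ± 4.66) followed, Abcc3 overlapping with both of the others, then Abcb1a (22.2 ± 2.61), Abcc2 (12.9 ± 11.0) and Abcb1b (9.32 ± 2.17), of which Abcc2 overlapped with both.

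Among adult heterozygotes Abcc1 (567 ± 20.1), Abcc4 (531 ± 18.2) and Abcc3 (497 ± 67.4) led and overlapped. In homozygotes Abcc4 (929 ± 168), Abcc3 (848 ± 137) and Abcc1 (828 ± 114) overlapped, as they did in KEAP1-deficient adults, at 941 ± 114, 848 ± 84.4 and 813 ± 63.5. Adult wild type was led by Abcc1 (359 ± 15.7), above Abcc3 (291 ± 43.7), followed by Abcc4 (134 ± 9.61) and Abcc5 (124 ± 14.0), which overlapped, then Abcg2 (57.8 ± 7.91). Abcb1b (37.4 ± 4.46) and Abcb1a (34.3 ± 3.62) overlapped, and Abcc2 (0.209 ± 0.209) was last there, as in every adult group.

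For the 5 exporters called in homozygous pups, the genes with the most similar 5 log2 fold changes against wild type were found among 13515 genes, by root mean square difference on the log2 scale. The comparisons within an experiment share their wild-type libraries. Nearest to Abcc4 were Procr, the endothelial protein C receptor (0.366), Srxn1, sulfiredoxin (0.505), and the lipoprotein receptor gene Lrp8 (0.558). Procr had log2 fold changes of 4.62 and 5.18 in homozygous and KEAP1-deficient pups, and of 2.11, 2.64 and 3.17 in heterozygous, homozygous and KEAP1-deficient adults. Nearest to Abcc3 were Cbr3, a carbonyl reductase (0.279), the connexin gene Gjb2 (0.316) and H60c, a ligand gene of the NKG2D receptor (0.322). Nearest to Abcc1 were Avpi1 (0.142), the protease gene Pappa (0.171) and Pqlc3 (0.193). Abcb1b was nearest to Gm43860 (0.15), the cyclin-dependent kinase inhibitor gene Cdkn2b (0.171) and Sgtb (0.175), and Abcb1a to the paraoxonase gene Pon3 (0.0783), Klf13 (0.0982) and the importin gene Kpna1 (0.101). Small distances are common near 0, so the value for Abcb1a says less than that for Abcc4.

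Other ABC transporters were called in both directions, in adults at shares near those over all genes in homozygotes. Of 35 tested in homozygous pups 11 were higher and 4 lower (median log2 fold change 0.12), and of 35 in KEAP1-deficient pups 13 and 8 (median 0.26). Over all genes 22.0% were higher and 17.1% lower in homozygous pups, and 26.3% and 23.2% in KEAP1-deficient pups. Of 32 tested in adults 3 were higher and 1 lower in heterozygotes, 4 and 3 in homozygotes, and 9 and 12 in KEAP1-deficient mice, at medians of 0.06, -0.01 and -0.12; over all genes 4.80% were higher and 4.90% lower in heterozygotes, 11.8% and 10.4% in homozygotes, and 24.1% and 22.7% in KEAP1-deficient adults. The largest change in homozygous pups was that of Abca12, the keratinocyte lipid transporter that supplies the skin barrier, at 15452 ± 631 against 170.0 ± 102 in wild type (6.68 (SE 0.38, adjusted p = 6.7e-06)); in adults its change was 0.06 (SE 0.15, adjusted p = 0.8). Abcg1, a sterol exporter, rose by 2.05 (SE 0.15, adjusted p = 4.4e-06). Abcc6, an ABC protein highly expressed in liver, fell by 2.02 (SE 0.59, adjusted p = 0.022), a call that ended without homozygote library 2 or 3, without wild-type library 3 and without the 3 libraries highest in hepatocyte genes. In adult homozygotes Abcg3 rose by 1.27 (SE 0.25, adjusted p = 0.0023) and Abcb11, the bile salt export pump gene, by 1.27 (SE 0.27, adjusted p = 0.0034), while Abcd3, a peroxisomal half-transporter gene, fell by 0.78 (SE 0.10, adjusted p = 6.8e-05).

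The enzymes that make the substrates of the MRPs were counted beside them. Over all genes 22.0% were higher and 17.1% lower in homozygous pups, and 26.3% and 23.2% in KEAP1-deficient pups. In adults these shares were 4.80% and 4.90% in heterozygotes, 11.8% and 10.4% in homozygotes, and 24.1% and 22.7% in KEAP1-deficient mice. Of 23 glutathione transferases, 17 were higher and 2 lower in homozygous pups (median 2.58), 17 and 4 in KEAP1-deficient pups (median 3.01), 7 and 1 in adult heterozygotes, 10 and 4 in homozygotes and 9 and 8 in KEAP1-deficient adults (adult medians 0.33, 0.52 and 0.16). Gsta1 had 14491 ± 3949.9 against 78.1 ± 16.5 in homozygous and wild-type pups (7.51 (SE 0.20, adjusted p = 1.1e-08)) and rose by 3.75 (SE 0.16, adjusted p = 5.3e-10) in adult homozygotes; it has near-identical copies, so its value is uncertain. UDP-glucuronosyltransferases were listed with the dehydrogenase that makes their sugar donor, 14 genes tested in pups and 9 in adults. Of these, 8 were higher and 3 lower in homozygous pups, and 8 and 2 in KEAP1-deficient pups. In adults 2 were higher and 1 lower in heterozygotes, 6 and 1 in homozygotes and 3 and 1 in KEAP1-deficient mice. The medians of this list were 1.18 and 1.41 in the pup groups and 0.30, 0.50 and -0.20 in the adult groups. Ugt1a7c, uncertain because Ugt1a genes share exons, rose by 4.55 (SE 0.10, adjusted p = 8.6e-10) in homozygous pups. Sulfotransferase genes were listed with those of enzymes that make the sulfate donor. Of 11 in pups, 4 were higher and 1 lower in homozygotes, and 3 and 1 in KEAP1-deficient mice. Sult2b1, a cholesterol sulfotransferase, was higher by 3.61 (SE 0.08, adjusted p = 8.9e-10) in homozygous pups. Of 7 in adults, 2 were higher and 1 lower in heterozygotes, 1 and 2 in homozygotes, and 2 and 2 in KEAP1-deficient mice. The 1 higher in adult homozygotes encodes a donor enzyme and not a sulfotransferase. The medians of this list were 0.63 and 0.40 in pups and -0.05, -0.23 and 0.03 in adults. Solute carriers for organic ions, 17 tested in pups and 15 in adults, had 6 higher and 1 lower in homozygous pups, 5 and 2 in KEAP1-deficient pups, then 1 and 1, 3 and 3, and 4 and 3 in the adult groups in the same order. Their median log2 fold change was below 0 in pups, -0.64 in homozygotes and -0.48 in KEAP1-deficient mice, where 22.0% and 26.3% of all genes were higher, and it was 0.09, 0.10 and -0.18 in adults. Xenobiotic receptor genes, 10 tested in pups and 8 in adults, had 1 higher in homozygous pups, 2 higher in KEAP1-deficient pups, and 0 higher with 0, 2 and 2 lower in the adult groups, with medians from -0.14 to -0.04. Nfe2l2, which encodes NRF2, had 1806, 1618, 1204 and 1199 in adult homozygotes against 6110.4, 5203, 5638 and 5695 in wild type, a log2 change of -1.98 (SE 0.12, adjusted p = 1.2e-08), while its change in homozygous pups was 0.31 (SE 0.17, adjusted p = 0.17). Nfe2l2 was also called lower in adult heterozygotes and KEAP1-deficient adults, at means of 3565 and 4302 against 5662 in wild type. In KEAP1-deficient pups it was called higher, at a mean of 2513 against 1301 in wild type.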

How the data were processed

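Esophagus RNA of 9 pup and 16 adult libraries was sequenced with a directional kit, per the labels. The authors deposited log2 values, 1 table per experiment, made with Salmon and GRCm39 per the submitters' processing notes; their versions: not given in the sources used here. From the values, they equal log2(normalised count + 4), and whole reads were recovered: 100% of values up to 1000 reads lay within 0.1 of a whole number. A gene was tested if it reached 1 normalised count in at least 3 pup or 4 adult libraries (21007 and 19857 genes). Limma 3.58.1 (statmod 1.5.0, R 4.3.3) was fitted with trend and robust settings on log2(normalised count + 1), all groups of a table together, with Benjamini-Hochberg adjustment over all genes and calls under 0.05. Adult and pup effects were compared over 19031 genes by dividing their difference by its standard error (degrees of freedom after Welch and Satterthwaite).

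The code was tested on simulated data. The 8 exporters and all lists were chosen with earlier results of these data known; the hepatocyte, thyroid and stomach lists were chosen after seeing the data. Other genes were named by rule: Nfe2l2, Keap1 and, per list, up to 3 called genes with the largest change and a mean of at least 20; some of those reached are not printed. Genes most alike had a mean of at least 50 in both tables. Alternatives were pseudocounts of 0.1 and 4, no filter, TMM scaling, limma-voom on recovered reads, a replicate block, thinning to equal depth, only the groups compared, leaving out each library and, chosen after seeing the data, leaving out the 3 pup libraries highest in hepatocyte genes. Counting intervals cover counting error only. Transcript lengths come from GENCODE M21 and promoters from RefSeq (GRCm38.p6).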

Additional observations from a re-analysis of the deposited data

Results flagged for a closer look

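The effects below differed between adults and pups by the test of the difference itself, as adult minus pup log2 fold change against wild type. For L30F homozygotes the exporters were Abcc1 (-1.65), Abcc3 (-3.38), Abcc4 (-2.52), Abcb1b (-1.43) and Abcc2 (4.69), the last with a wide standard error of 1.19. For KEAP1 deletion they were Abcc1 (-1.92), Abcc3 (-3.68), Abcc4 (-2.58), Abcb1b (-1.86) and Abcc2 (3.52). Among other genes named, the L30F effect differed for Abca12 (-6.61), Ugt1a7c (-3.84), Gsta1 (-3.76), Sult2b1 (-3.48), Nfe2l2 (-2.29), Abcg1 (-2.24) and Abcd3 (-1.47). The KEAP1 effect differed for Abca12 (-7.18), Ugt1a7c (-4.15), Sult2b1 (-3.52), Gsta1 (-3.37), Abcd3 (-2.21), Abcg1 (-1.68), Nfe2l2 (-1.33) and Abcg3 (2.99). Abcd3 was called in opposite directions at the 2 ages: it fell by 0.78 in adult homozygotes and rose by 0.70 in homozygous pups.

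A single library lay far from the other 3 of its group in 3 of the genes named, by Dixon's ratio: Abcg3 in wild-type adult 2, at 16.8 normalised counts; Abcb11 in heterozygous adult 1, at 40.2; and Ugt1a7c in KEAP1-deficient adult 3, at 1956. Another 7 such libraries, in 6 genes, were found among enzymes and a receptor of the lists that are not named here. None of the 8 exporters had such a library in 32 adult groups checked, where chance flags about 1 in 20; groups of 3 were not checked. No cause was tested.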

How the results depend on the processing

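Over 12 comparisons the 8 exporters gave 96 results, of which 54 were called. None of the 54 changed sign under any of the 9 other settings or without any single library. The call was lost under at least 1 alternative in 6 of them: Abcb1a in adult homozygotes, Abcb1b and Abcc2 in KEAP1-deficient adults, Abcg2 in heterozygotes, and Abcc2 against the midpoint and in the KEAP1 effect between ages. Abcb1a in adult homozygotes was not called with TMM scaling (adjusted p = 0.056), limma-voom (adjusted p = 0.052), thinning (adjusted p = 0.11) or only the groups compared (adjusted p = 0.096). Among results not called, 10 were called under some alternative and 11 changed sign, each with a log2 difference of at most 0.18 either way when all libraries and the reported settings were used; the cause was not tested. Under TMM scaling Abcg2 in adult homozygotes against wild type was -0.010 and Abcc3 against the midpoint -0.0027, which was -0.021 after thinning. With the 3 pup libraries highest in hepatocyte genes left out, Abcg2 in KEAP1-deficient pups against wild type was -0.039.

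Leaving out single libraries moved these values around 0. Abcg2 in KEAP1-deficient pups ranged from -0.060 to 0.24. Between homozygous and KEAP1-deficient pups, Abcc5 ranged from -0.036 to 0.073, Abcg2 from -0.011 to 0.29 and Abcb1a from -0.081 to 0.082. In adult homozygotes against wild type, Abcc5 ranged from -0.050 to 0.090 and Abcg2 from -0.081 to 0.14. Abcb1b between homozygotes and heterozygotes ranged from -0.038 to 0.19. Between adult homozygotes and KEAP1-deficient mice, Abcc1 ranged from -0.050 to 0.11, Abcc3 from -0.078 to 0.082 and Abcc4 from -0.12 to 0.072, and the exporters called from 1 to 2. Abcc3 against the midpoint ranged from -0.080 to 0.076, and Keap1 in homozygous pups against wild type from -0.056 to 0.23. Over all genes, the calls between homozygous and KEAP1-deficient pups ranged from 46 to 924, those of heterozygotes against wild type from 624 to 2455, of homozygotes against heterozygotes from 2134 to 3314, and against the midpoint from 960 to 2123. With only the groups compared in the fit these counts were 185, 809, 1544 and 1181, with fewer samples to estimate the spread, and the first was 28 with the 3 pup libraries left out.

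Replicate numbers were not treated as pairs in the main fit. Libraries of the same number correlated at 0.02 on average in pups and in adults, after removing group means. The values ranged from -0.10 to 0.22 over 9 pairs in pups and from -0.07 to 0.10 over 24 in adults. So few pairs cannot exclude a pairing. With a replicate block 222 genes were called between homozygous and KEAP1-deficient pups; among the exporters the block ended the call of Abcb1a in adult homozygotes (adjusted p = 0.058) and added that of Abcb1a in the KEAP1 effect between ages (adjusted p = 0.031), and it changed no other exporter call. Adult homozygotes were the shallowest group, with 3 to 8 reads of Abcc2 a library.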
